A study of Mus musculus with 12 samples.

Results

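The tight junction genes described here were 10 genes chosen by name (Cldn1, Cldn3, Cldn4, Cldn6, Cldn7, Ocln, Marveld2, Tjp1, F11r and Cgn), found by symbol among the 55335 genes of a deposited count table. They were chosen with earlier results of these data known. Their polyA transcripts were counted in PYMT-R221A, a line grown from mouse mammary tumours. The 4 groups held 3 libraries each: control cells, cells treated with 40 µM KCC-07 (a compound named in the series title as an inhibitor of the MBD2 pathway), cells transfected with scramble siRNA, and cells transfected with siRNA against Mbd2 (siMBD2). The labels name no vehicle, treatment time, siRNA sequence or time after transfection, so that a vehicle effect in KCC-07 against control and a transfection effect in scramble against control cannot be told apart from the named agents. The labels call the replicates biological and give each library a batch number from 1 to 3. The library names number the third control and KCC-07 libraries 4 but the third siRNA libraries 3, so whether the drug and siRNA arms shared a batch is uncertain. All 12 libraries came from this 1 line.

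Tight junctions are belts of membrane proteins that seal the space between neighbouring epithelial cells near their apical surface. Claudins form the paracellular strands, occludin (Ocln) and tricellulin (Marveld2, found where 3 cells meet) join them as tetraspan MARVEL proteins, and the immunoglobulin-type adhesion protein JAM-A (F11r) lies beside them. On the cytoplasmic side, zonula occludens 1 (Tjp1) and cingulin (Cgn) tie the strands to actin and myosin. In the mammary gland the luminal layer carries these belts, and loss of several claudins is known from poorly differentiated mammary tumours.

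Library totals ran from 25.8 to 34.0 M counts. Levels are CPM, which are counts relative to the TMM-scaled library size, and tests are edgeR quasi-likelihood tests with Benjamini-Hochberg adjustment over the 14935 genes that passed a filter on low counts, with 0.05 as the threshold. Of the 10 genes, 9 passed the filter, and each of these lay above its level of 0.336 CPM in every library. The targeted gene Mbd2 stood at a fold of 0.436 in siMBD2 against scramble (edgeR adjusted p = 0.000197) and of 0.998 in KCC-07 against control (edgeR adjusted p = 0.991). The libraries of batch 3 stood apart: mitochondrially encoded transcripts took 2.70% to 3.90% of their counts against 1.45% to 2.32% in the other 8 libraries. Epithelial markers (Epcam, Krt8, Krt18, Krt19, Cdh1, Krt7) were all detected and summed to 1251 to 1458 CPM in control, 1497 to 1519 CPM with KCC-07, 1628 to 1734 CPM with scramble siRNA and 1507 to 1689 CPM with siMBD2. Their directions with KCC-07 were mixed: Epcam (log2 0.45), Cdh1 (0.39), Krt18 (0.43, edgeR adjusted p = 0.0479) and Krt19 (0.97, 0.0498) rose, while Krt8 (-0.17) and Krt7 (-0.11) did not pass. The 6 basal or myoepithelial markers summed to 552 to 662 CPM in control, 343 to 690 CPM with KCC-07, 550 to 619 CPM with scramble siRNA and 558 to 580 CPM with siMBD2. Among them Oxtr, at most 5.74 CPM in any library, fell by 1.83 on the log2 scale with KCC-07 (edgeR adjusted p = 0.00907). With KCC-07 the others did not pass. Krt5 (-1.45), Trp63 (-0.82, edgeR adjusted p = 0.0626) and Krt14 (-0.27) lay below 0, and Krt17 (0.45) and Acta2 (0.05) above it. In scramble against control the epithelial markers Krt7 (log2 0.91, edgeR adjusted p = 0.00598), Cdh1 (0.53, 0.0102) and Krt19 (-1.37, 0.0143) passed. So did Trp63 (-0.97, edgeR adjusted p = 0.0285) and the fibroblast marker Pdgfrb (-2.34, edgeR adjusted p = 0.00966). The 8 fibroblast markers, of which 4 passed the filter and Thy1 was at 0 in every library, summed to 186 to 218 CPM in control and 102 to 160 CPM with KCC-07, with 143 to 147 CPM for scramble siRNA and 139 to 159 CPM for siMBD2. The 6 macrophage markers, of which 2 passed the filter, summed to 3.10 to 5.23 CPM in control and 7.44 to 9.22 CPM with KCC-07. With scramble siRNA they summed to 2.37 to 3.53 CPM and with siMBD2 to 2.49 to 2.79 CPM. Neither of the 2 tested was called with KCC-07, Cd68 (log2 2.04, edgeR adjusted p = 0.0581) or Csf1r (0.45, 0.640). Ptprc had at most 3 counts in any library. Of the 6 endothelial markers only Pecam1 passed the filter, at 0.701 to 6.48 CPM over the libraries. It was not called with KCC-07 (log2 0.27, edgeR adjusted p = 0.768). The endothelial list summed to 2.80 to 4.30 CPM in control and 1.19 to 6.62 CPM with KCC-07. Its sums were 1.57 to 1.98 CPM with scramble siRNA and 0.924 to 1.88 CPM with siMBD2. Cdh5, Tie1, Adgre1, Cd3d, Cd2, Ms4a1, Adipoq, Plin1 and Cfd were at 0 in every library. The lymphocyte list summed to at most 0.314 CPM and the adipocyte list to at most 0.366 CPM. In bulk RNA, more cells with a transcript and more transcript per cell cannot be told apart, and the part of these marker sums and of batch 3 in the results below was not tested.

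In the mouse genome (GRCm38.p6) 4 of the genes form neighbouring pairs. Cldn3 (chr5:134986214-134987472, plus strand) and Cldn4 (chr5:134945119-134946934, minus strand) are 39.3 kb apart with no annotated gene between them. Ocln (chr13:100496507-100552718) and Marveld2 (chr13:100595957-100616971), both on the minus strand, are 43.2 kb apart with no protein-coding gene between them. The 250 bases before the RefSeq start are shown for the 4 genes among those that rose with KCC-07 whose window held no annotated exon. They are Cldn4 (chr5:134946935-134947184, minus strand), its neighbour Cldn3 (chr5:134985964-134986213, plus strand), Cldn7 (chr11:69964529-69964778, plus strand, the more upstream of its 2 starts) and Ocln (chr13:100552719-100552968, minus strand, likewise). Capitals mark CAGGTG, the E-box read by SNAI and ZEB repressors, and TGACTCA, the AP-1 site, on either strand.
Cldn4: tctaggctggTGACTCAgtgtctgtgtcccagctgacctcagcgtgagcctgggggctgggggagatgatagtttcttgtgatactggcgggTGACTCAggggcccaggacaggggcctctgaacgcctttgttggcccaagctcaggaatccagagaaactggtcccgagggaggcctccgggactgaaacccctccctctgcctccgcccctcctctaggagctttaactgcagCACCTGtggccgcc
Cldn3: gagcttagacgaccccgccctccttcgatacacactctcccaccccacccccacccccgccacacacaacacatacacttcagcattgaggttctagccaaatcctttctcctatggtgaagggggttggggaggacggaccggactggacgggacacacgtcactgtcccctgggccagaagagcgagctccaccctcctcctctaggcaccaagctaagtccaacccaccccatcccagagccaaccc
Cldn7: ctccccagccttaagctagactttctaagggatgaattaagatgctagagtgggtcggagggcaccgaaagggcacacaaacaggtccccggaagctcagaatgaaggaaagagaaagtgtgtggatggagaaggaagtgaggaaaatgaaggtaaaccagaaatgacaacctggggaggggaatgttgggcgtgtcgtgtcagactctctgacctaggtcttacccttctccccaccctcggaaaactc
Ocln: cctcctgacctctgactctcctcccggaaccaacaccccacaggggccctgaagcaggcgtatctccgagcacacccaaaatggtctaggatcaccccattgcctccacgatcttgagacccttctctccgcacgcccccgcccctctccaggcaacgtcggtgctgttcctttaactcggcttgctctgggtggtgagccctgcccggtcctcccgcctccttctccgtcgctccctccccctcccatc

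In the Cldn4 window the E-box began 14 bases before the start and the AP-1 sequences 158 and 240 bases before it, while the Cldn3, Cldn7 and Ocln windows shown held neither. Over 13 windows of all 10 genes, CAGGTG stood in 5 (Cldn4, Cldn6, F11r and the downstream starts of Cldn7 and Ocln), against 17.2% of 32851 RefSeq windows of the same length. TGACTCA, a motif added after the sequences were seen, stood in the windows of Cldn4 and F11r, against 4.46% of all windows. The GC box GGGCGG stood in 12 of the 13 windows, against 32.7% of all. AACNNGTT, a relaxed GRHL site that includes AACCGGTT, stood only in the Cgn window among the 13 (3.64% of all), TATAAA only in the overlapping windows of the 2 Marveld2 starts (12.4% of all), and neither AACCGGTT nor TGACNNNGC, the core of the antioxidant response element, in any. The windows held 6 to 22 CG dinucleotides, against a median of 6 over all windows. Methylation was not measured here, and these matches describe letters only.

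Levels of different genes were compared per kilobase of annotated exon. In control F11r stood highest, at 46.1 ± 1.82 CPM per kb (mean ± SD, n = 3), then Cldn3 at 23.1 ± 3.86 and Tjp1 at 15.3 ± 1.437, and the ranges of these 3 genes did not overlap. Cgn (6.004 ± 2.08 CPM per kb) and Marveld2 (4.08 ± 0.234) overlapped. Cldn7 followed at 1.49 ± 0.248, Ocln at 0.816 ± 0.0525, Cldn4 at 0.613 ± 0.216 and Cldn1 at 0.554 ± 0.0388 CPM per kb, and Cldn4 overlapped Cldn1. With KCC-07 the Cldn3 mean passed that of F11r, at 67.7 ± 32.6 against 52.4 ± 3.38 CPM per kb, with overlapping ranges. With scramble siRNA the Cldn3 mean was also first, at 42.3 ± 11.6 against 41.8 ± 3.18 CPM per kb, again with overlapping ranges. Cldn1 stayed the lowest of the 9 in every group. Cldn6, a claudin of embryonic epithelia, was at or below the floor: its counts summed to 2 in the 3 control libraries, 5 with KCC-07, 1 with scramble siRNA and 3 with siMBD2, and it was not tested.

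**Figure D1:**
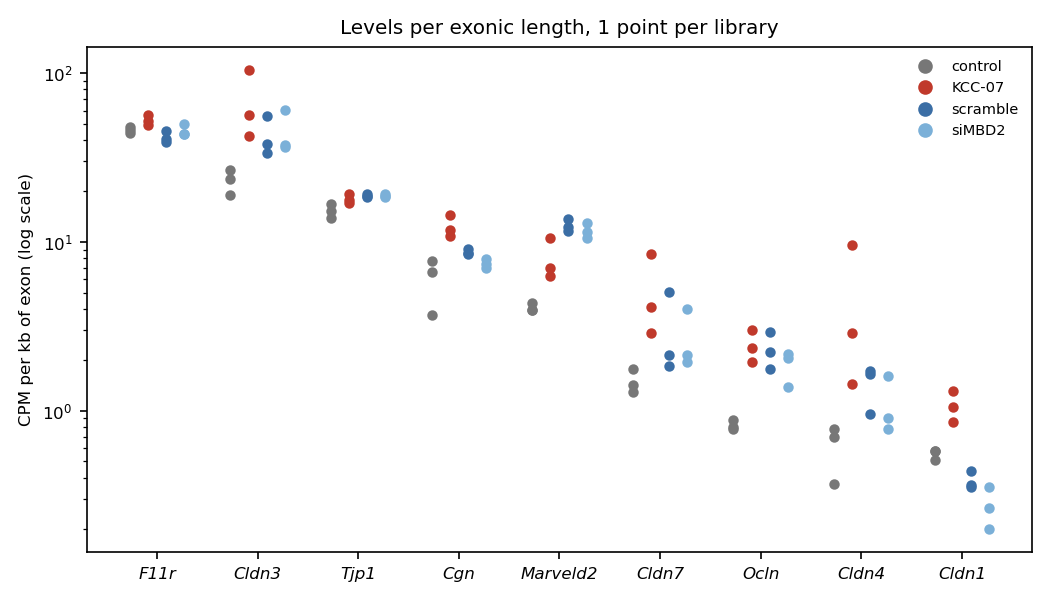
CPM per kilobase of exon (log scale) for 9 tight junction genes, with 1 point per library coloured by group and genes ordered by their control mean. F11r stands highest and Cldn1 lowest in control, and Cldn3 reaches the level of F11r with KCC-07 and with either siRNA.

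Most of the set rose with KCC-07. Of the 9 genes tested, 7 rose (Cldn1, Cldn3, Cldn4, Cldn7, Ocln, Marveld2 and Cgn) and none fell, where 5.65% of all genes tested were called (3.58% higher). In all 9 the 3 KCC-07 libraries lay above the 3 control libraries, as in 12.3% of all genes. The median log2 fold change was 1.04 over the 9 genes and 0.02 over all genes tested. Because the genes were chosen with earlier results of these data known, these shares and medians do not test the set. With the batch number as a replicate block the same 7 genes passed, where 21.8% of all genes did. These calls rest on the spread pooled over the 4 groups. With the 6 libraries of the comparison alone 0 of the 9 passed, against 0.0067% of all genes (1 of 14935). In the fit of all 12 libraries, which uses that pooled spread, 8 of the 9 had an unadjusted p under 0.05, where 25.1% of all genes did. Without control replicate 1 the count was 3, where 2.7% of all genes passed, and without control replicate 2 it was also 3, where 2.62% did.

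**Figure D2:**
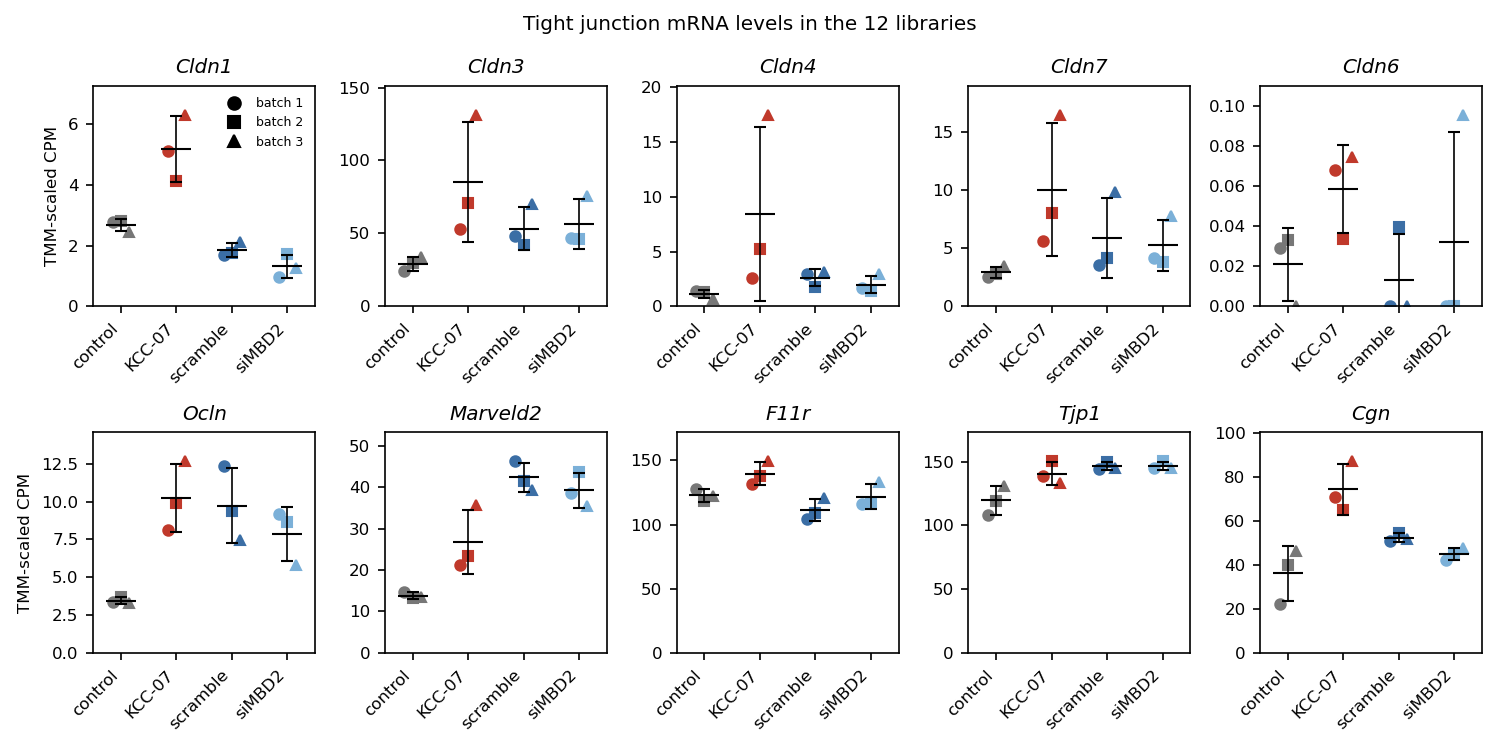
TMM-scaled CPM of the 10 genes in each of the 12 libraries. Points are libraries with their batch number as shape, and bars are the group mean ± SD (n = 3). The KCC-07 libraries lie above the control libraries for the 9 tested genes, Cldn6 had at most 3 counts in any library, and the batch 3 library is the highest KCC-07 library for 8 of those 9 genes, all but Tjp1.

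Among the claudins, Cldn4 had the largest change. Cldn4, a sealing claudin of glandular epithelium, stood at 1.41, 1.27 and 0.667 CPM in control replicates 1 to 3 and at 2.59, 5.26 and 17.5 CPM with KCC-07. The KCC-07 libraries were all higher, and that of batch 3 stood far above the other 2. The fold change was 7.58 (log2 2.92, SE 0.625, edgeR adjusted p = 0.0217). Without KCC-07 replicate 3 the log2 change was 1.82 and stayed past the threshold, with batch 3 left out it was 1.56 and also passed, and without control replicate 1 or 2 the call ended (edgeR adjusted p = 0.0625 and 0.0673). The counts behind it were small in control, from 23 to 48.

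Cldn3, the most abundant claudin of the set and the genomic neighbour of Cldn4, stood at 23.9, 29.5 and 33.6 CPM in control and at 53.1, 71.1 and 131 CPM with KCC-07. The groups did not overlap, and batch 3 was highest in both. Its log2 fold change was 1.55 (SE 0.325, edgeR adjusted p = 0.0200), and the call ended without control replicate 1 or 2 (edgeR adjusted p = 0.0776 and 0.0652). Exons of Cldn3 overlap Wbscr25 on the opposite strand, which held 3 to 26 counts per library. The strand setting of the counting is not given in the sources used here, so Cldn3 is uncertain in that respect.

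Cldn7, a claudin that binds EpCAM, stood at 2.52, 2.76 and 3.45 CPM in control and at 5.63, 7.97 and 16.5 CPM with KCC-07. The KCC-07 library of batch 3 again stood highest. Its log2 fold change of 1.78 (SE 0.470) was close to the threshold (edgeR adjusted p = 0.0487), and without KCC-07 replicate 3 it was 1.22 and did not pass (edgeR adjusted p = 0.133). The call also ended without control replicate 1 or 2, KCC-07 replicate 2, siMBD2 replicate 1 or 2, or scramble replicate 1 or 2, with edgeR adjusted p up to 0.142.

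Cldn1, a barrier claudin best known from skin, had the lowest level per kilobase of the genes that rose. It stood at 2.78, 2.80 and 2.46 CPM in control and at 5.12, 4.12 and 6.32 CPM with KCC-07. Control was tightly grouped and below every KCC-07 library. The log2 fold change of 0.95 (SE 0.241, edgeR adjusted p = 0.0429) passed in 3 of the 12 fits that left out 1 library, those without KCC-07 replicate 2 and without siMBD2 replicate 1 or 2. It did not pass without the libraries of batch 3 (log2 0.73, edgeR adjusted p = 0.0698).

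Ocln and Marveld2 rose as well. Ocln stood at 3.37, 3.70 and 3.28 CPM in control and at 8.15, 9.88 and 12.7 CPM with KCC-07. Its lowest KCC-07 library was above every control library by more than the spread within control, and its log2 fold change of 1.57 (SE 0.240, 95% interval 1.04 to 2.09, edgeR adjusted p = 0.00626) passed in all 12 fits that left out 1 library. Marveld2 stood at 14.7, 13.3 and 13.4 CPM in control and at 21.3, 23.5 and 35.7 CPM with KCC-07. Here too the KCC-07 library of batch 3 was highest. The log2 fold change was 0.96 (SE 0.174, edgeR adjusted p = 0.0120) and passed in all 12 of those fits. Marveld2 holds the small nuclear RNA gene Gm24261 on the opposite strand, without exon overlap.

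Of the cytoplasmic and adhesion members only Cgn passed. Cingulin mRNA stood at 22.2, 39.9 and 46.4 CPM in control and at 70.8, 65.2 and 87.3 CPM with KCC-07, with control replicate 1 well below the other 2 control libraries. Its log2 fold change was 1.04 (SE 0.212, edgeR adjusted p = 0.0187), 0.78 without control replicate 1, and it passed in all 12 fits that left out 1 library.

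Tjp1, the scaffold that anchors claudins, stood at 108, 119 and 131 CPM in control and at 138, 150 and 133 CPM with KCC-07, so that the groups came close to touching. Its log2 difference was 0.23 (95% interval 0.05 to 0.42, edgeR adjusted p = 0.114). It passed without control replicate 3 (log2 0.30, edgeR adjusted p = 0.0285) and with batch 3 left out (log2 0.35, edgeR adjusted p = 0.00874). F11r stood at 128, 118 and 122 CPM in control and at 132, 138 and 149 CPM with KCC-07. Its log2 difference was 0.19 (95% interval -0.01 to 0.38, edgeR adjusted p = 0.215).

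**Figure D3:**
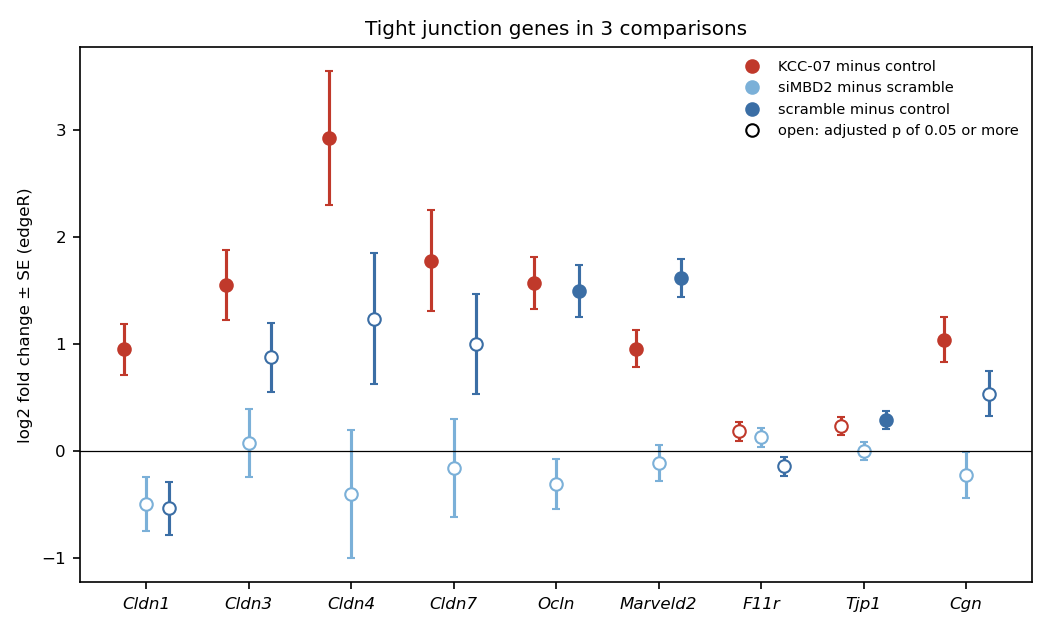
Log2 fold changes with SE from the edgeR fit of all 12 libraries for 9 genes in 3 comparisons; filled points passed an adjusted p of 0.05. With KCC-07 7 genes passed, all above 0, with siMBD2 0 passed, and in scramble against control Ocln, Marveld2 and Tjp1 passed.

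Within batches, every tested gene was higher with KCC-07 than in the control library of the same number. This follows from the groups not overlapping and adds nothing to it, whereas the sizes of the ratios differed. The log2 ratios of Cldn4 were 0.88, 2.06 and 4.71 in batches 1, 2 and 3, those of Cldn7 1.16, 1.53 and 2.25, those of Cldn3 1.15, 1.27 and 1.97, and those of Marveld2 0.53, 0.82 and 1.42. Batch 3 gave the largest ratio for these 4 genes and also for Cldn1 (1.36), Ocln (1.95) and F11r (0.29). For Cgn batch 1 gave the largest (1.68), and for Tjp1 batch 3 gave the smallest (0.02).

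**Figure D4:**
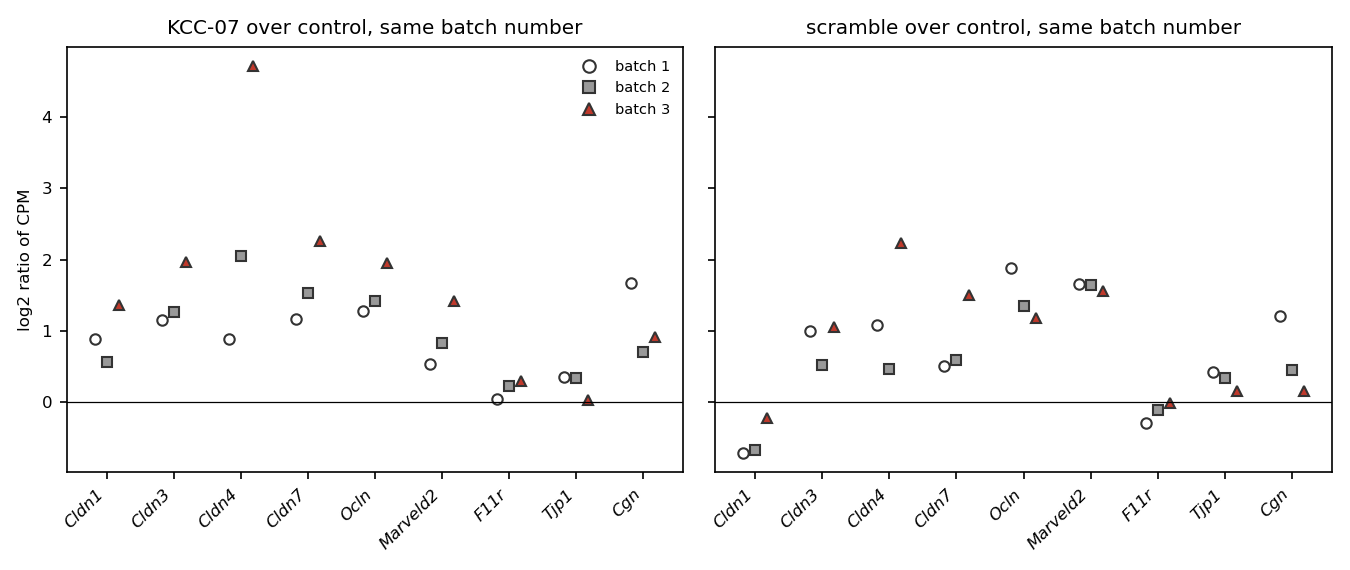
Log2 ratio of CPM between libraries of the same batch number, for KCC-07 over control on the left and scramble over control on the right. On the left all points lie above 0, as they must where the groups do not overlap, and Cldn4 reaches 4.71 in batch 3. On the right Cldn1 and F11r lie below 0 in all 3 batches.

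The knockdown of Mbd2 was tested in the same way and gave no called gene in the set. Of the 9 genes 0 passed with edgeR, 0 had an unadjusted p under 0.05 (5.26% of all genes did) and 0 passed with DESeq2 or with the replicate block. Of all genes edgeR called 0.0402%, DESeq2 0.536% and the fit with the block 0.75%. The median log2 difference was -0.16 over the 9 genes and 0.00 over all genes. The interval of each difference sets what could have been missed. For Ocln, at 12.3, 9.39 and 7.43 CPM with scramble siRNA and 9.15, 8.64 and 5.80 CPM with siMBD2, it ran from -0.82 to 0.20. For Marveld2 (log2 -0.11) it ran from -0.48 to 0.26 and for Tjp1 (0.00) from -0.18 to 0.18, narrow beside those of Cldn4 (-0.40, from -1.70 to 0.90) and Cldn7 (-0.16, from -1.16 to 0.84). Cldn3 (0.08) ran from -0.61 to 0.77 and F11r (0.13) from -0.06 to 0.32. Cldn1 stood at 1.70, 1.74 and 2.11 CPM with scramble siRNA and at 0.956, 1.71 and 1.27 CPM with siMBD2, a log2 difference of -0.49 (from -1.05 to 0.06). Cgn was the only gene whose groups did not overlap, at 51.1, 54.7 and 51.8 against 42.4, 44.7 and 48.0 CPM (log2 -0.22, edgeR adjusted p = 1.00), where 11.6% of all genes lay apart in that direction. With the 6 siRNA libraries fitted alone with the replicate block, Cgn (edgeR adjusted p = 0.0107) and F11r (log2 0.14, edgeR adjusted p = 0.0162) passed, but so did 18.4% of all genes.

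The KCC-07 effect exceeded the knockdown effect for Ocln. The difference of the effects on the log2 scale was 1.88 (SE 0.333, edgeR adjusted p = 0.0339), where 0.656% of all genes were called (0.482% higher). All 9 differences were above 0, with a median of 1.441, against 50.3% of all genes. With the replicate block Cldn1 (1.45, edgeR adjusted p = 0.0449), Cldn3 (1.39, 0.0108), Cldn7 (1.76, 0.0183), Marveld2 (1.04, 0.0299) and Cgn (1.32, 0.0172) passed as well as Ocln, where 6.9% of all genes did. In that fit each arm had its own block, so batches common to both arms were not assumed. Cldn4 had the largest difference, 3.32, and missed the threshold in both fits (edgeR adjusted p = 0.105, and 0.0751 with the block), although it passed without the libraries of batch 3 (2.20, edgeR adjusted p = 0.0359). Cldn4 also passed with DESeq2 and without the filter on low counts. The Ocln call held in 4 of the 12 fits that left out 1 library. It ended without control replicate 1 or 2, KCC-07 replicate 2, scramble replicate 1 or 2, or any siMBD2 library (edgeR adjusted p up to 0.109).

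Ocln and Marveld2 rose with scramble siRNA too. Against control, 3 of the 9 genes rose (Ocln, Marveld2 and Tjp1) and none fell, where 8.79% of all genes were called (4.71% higher). This comparison shares the control libraries with KCC-07 against control, so the values stand side by side without a measure of likeness. Marveld2 rose from the control values given above to 46.3, 41.6 and 39.3 CPM, all above the KCC-07 libraries, with a log2 fold change of 1.62 (SE 0.175, edgeR adjusted p = 0.00151). Ocln rose to 12.3, 9.39 and 7.43 CPM (log2 1.497, SE 0.240, edgeR adjusted p = 0.00591), a range that overlapped that of KCC-07. Both calls held in all 20 alternatives.

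Tjp1 stood at 145, 150 and 145 CPM with scramble siRNA, a log2 fold change of 0.29 near the threshold (edgeR adjusted p = 0.0492) that passed in 2 of the 12 fits that left out 1 library, those without control replicate 3 and without KCC-07 replicate 3. Cldn3 (0.88, edgeR adjusted p = 0.105), Cldn4 (1.24, 0.217), Cldn7 (1.00, 0.190) and Cgn (0.54, 0.127) did not pass although their groups did not overlap. With a replicate block shared by all groups Cldn3 (0.85, edgeR adjusted p = 0.0103) and Cldn7 (0.87, 0.0310) passed, where 13.8% of all genes did, but whether the arms shared batches is not given. Without the libraries of batch 3, 6 genes passed, adding Cldn3 (0.76), Cgn (0.78) and, lower, F11r (-0.20), where 41.3% of all genes did. All scramble libraries lay above control for 7 genes, as in 16.4% of all genes, and below it for Cldn1 alone, as in 16.8%. The Cldn1 libraries stood at 1.70, 1.74 and 2.11 CPM (log2 -0.53, edgeR adjusted p = 0.188). F11r differed by -0.14 (edgeR adjusted p = 0.322).

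Likeness across the 12 libraries is given on log2 CPM as a description without a test, since the libraries share treatments, batches and depth. Cldn3 and Cldn7 had a Pearson r of 0.96, Cldn3 and Cldn4 0.88, and Cldn4 and Cldn7 0.86. Ocln and Marveld2, the MARVEL neighbours, had 0.82 and Marveld2 and Tjp1 0.77, whereas Cldn1 and Marveld2 had -0.41. Among 11107 genes outside the set, those most like Cldn4 were Dda1 (r = 0.96), Fxyd5 (0.94) and Zfand2a (0.94), and those most like Cldn3 were Stim1 (0.96), Rell1 (0.95) and Pnpla2 (0.95). Cldn7 was most like Tc2n (0.97), Reep4 (0.95) and the polarity gene Crb3 (0.94), and Ocln most like Gprc5a (0.96), Tmprss2 (0.96) and Btbd10 (0.95). Marveld2 was most like Kcnk1 (0.97), E2f6 (0.96) and Grhl3 (0.96), Cgn most like Ppfia1 (0.96), Cadm4 (0.95) and Raph1 (0.95), and Cldn1 most like AW554918 (0.95), Spn (0.95) and Ero1lb (0.95).

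Wider lists of junction genes, also chosen with earlier results of these data known, were counted in the same fits. Of 16 other tight junction membrane proteins tested in a fixed list of 32 symbols, 1 rose with KCC-07 and 12 lay above 0, with a median log2 change of 0.29. Of all genes tested 3.58% were called higher and 51.8% lay above 0. The called gene was Marveld3, another MARVEL domain gene, which rose from 17.1 ± 2.72 to 25.5 ± 0.994 CPM (mean ± SD, n = 3 each; log2 0.58, edgeR adjusted p = 0.0452). That call held only without control replicate 2, scramble replicate 3 or siMBD2 replicate 3 among the 12 fits that left out 1 library, with edgeR adjusted p up to 0.131. Marveld1, a further MARVEL domain gene named after its values were seen, stood at 12.9, 15.2 and 18.7 CPM in control and at 12.1, 13.0 and 23.3 CPM with KCC-07, with overlapping groups (log2 0.05, edgeR adjusted p = 0.935). With the replicate block 4 of the 16 rose, where 21.8% of all genes were called, namely Marveld3, the coxsackievirus and adenovirus receptor gene Cxadr (0.37), Crb3 (1.28) and Cldn23 (0.94).

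Of 26 plaque and polarity genes tested 4 rose with KCC-07, 9 rose and 1 fell with the block, and the median was 0.24. Of all genes 3.58% were called higher, and 21.8% were called with the block. Pard6b, a subunit of the PAR polarity complex, stood at 24.4, 21.7 and 11.3 CPM in control and at 57.1, 51.8 and 40.1 CPM with KCC-07. Its log2 fold change was 1.38 (SE 0.231, edgeR adjusted p = 0.00900), and in this gene batch 3 was lowest in both groups. Tjp3, the zonula occludens 3 gene, rose from 3.20 ± 1.08 to 7.89 ± 2.80 CPM (log2 1.30, edgeR adjusted p = 0.0195), Magi3, a scaffold of the junction, by log2 0.66 (edgeR adjusted p = 0.0189), and Arhgef2, a RhoA activator that binds cingulin, by 0.64 (edgeR adjusted p = 0.00893). Leaving out control replicate 1 ended the calls of Tjp3 and Magi3 (edgeR adjusted p = 0.0692 and 0.0584).

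Of 17 tested adherens junction, desmosome and epithelial adhesion genes 6 rose with KCC-07 and none fell, with a median of 0.35, where 3.58% of all genes were called higher. Pkp2, a desmosomal plakophilin, stood at 10.5, 9.46 and 9.04 CPM in control and at 18.2, 18.6 and 18.6 CPM with KCC-07 (log2 0.93, edgeR adjusted p = 0.00159). Nectin4 rose by log2 1.17, the envelope plakin gene Ppl by 1.07, the desmoglein gene Dsg2 by 0.60, Epcam by 0.45 and Cdh1, the E-cadherin gene, by 0.39 (edgeR adjusted p = 0.0435). The catenin genes, named after their values were seen, did not pass, at 0.04 for Ctnna1, -0.20 for Ctnnb1 and -0.10 for Ctnnd1. Leaving out 1 library left 2 to 8 of these genes called, and Cdh1 and Epcam both missed the threshold without control replicate 1 or 2, KCC-07 replicate 3, scramble replicate 1 or 2, or siMBD2 replicate 1 or 2 (edgeR adjusted p up to 0.128 for Cdh1 and 0.0884 for Epcam). Cdh1 also missed it without KCC-07 replicate 1 or scramble replicate 3. Dsg2 missed it without KCC-07 replicate 1 and without either of control replicates 1 and 2 (up to 0.0683) and Ppl without control replicate 2 or KCC-07 replicate 1 (up to 0.0642), while Pkp2 and Nectin4 passed in all 12 of those fits.

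Among 19 transcription factors of the epithelial state, Snai2 was the only one called with KCC-07, a share near the 5.65% of all genes called. Snai2 encodes Slug, a repressor that binds E-boxes of epithelial genes. It stood at 17.1, 13.9 and 13.8 CPM in control and at 7.74, 4.42 and 6.02 CPM with KCC-07, and fell by 1.30 on the log2 scale (SE 0.238, edgeR adjusted p = 0.0123), a call that held in all 12 fits that left out 1 library. With scramble siRNA it stood at 8.11, 6.06 and 11.04 CPM, a log2 difference of -0.83 from control (edgeR adjusted p = 0.0496) that ended without control replicate 1 or 2, scramble replicate 1 or 2, or any siMBD2 library (edgeR adjusted p up to 0.175). Grhl3, a grainyhead activator of epithelial genes named after its values were seen, rose from 1.58 ± 0.569 CPM in control to 11.3 ± 3.02 CPM with scramble siRNA (log2 2.83, edgeR adjusted p = 0.00282), and stood at 3.74 ± 1.52 CPM with KCC-07 (log2 1.23, edgeR adjusted p = 0.0659, and 0.00620 with the block). With the block Klf4, Ovol1 and Twist1 also passed with KCC-07, each higher. In that fit 4 of the 19 rose and 1 fell, where 21.8% of all genes were called. None of the 4 lists had a member called in siMBD2 against scramble, by edgeR with all 12 libraries, with the block or with DESeq2. With the 6 siRNA libraries alone and the block, 1 of the membrane, 9 of the plaque, 6 of the adhesion and 3 of the transcription factor genes passed, where 18.4% of all genes did.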

How the data were processed

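Gene counts of 12 polyA RNA libraries were used as deposited; per the submitters' processing notes DRAGEN, DESeq2 1.44.0, mm10 and GRCm38.p6 were named without a role, and the annotation, strand setting and treatment of multi-mapped reads are not given in the sources used here. Samples were grouped by the labels' treatment. Genes passing edgeR's filter (minimum count 10, minimum total 15) were TMM-scaled and fitted with edgeR 4.0.16 in R 4.3.3 (glmQLFit, glmQLFTest) with 4 group means and 8 residual degrees of freedom; the procedure was tested on simulated data. SE is the log2 fold change over the root of F, and log2 CPM used a prior count of 2. An exact permutation test of 3 against 3 cannot go below p = 0.1.

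The labels' batch tag pairs the replicate numbers. Deviations of same-numbered libraries from their group means correlated at 0.27, 0.28 and 0.48 in the KCC-07 arm and at 0.09, 0.15 and 0.42 in the siRNA arm. Across the arms, between scramble and control, they correlated at 0.07, 0.02 and 0.13. Replicates 1 and 2 correlated across numbers as strongly (0.17 and 0.30 with KCC-07, 0.18 and 0.21 with siRNA), so the data set apart replicate 3 only and the pairing of 1 and 2 rests on the labels. The paired fit with the replicate block was an alternative, as were DESeq2 1.42.0, its size factors, other filters, the 6 libraries alone, each library left out, and no batch 3. The 10 genes, the other lists (tight junction membrane and plaque, adhesion, transcription factors, cell type markers) and the motifs were chosen with earlier results of these data known. Named were all 10 genes, list members past the threshold with KCC-07 or siMBD2, and the 3 genes most like each called gene. Exceptions among these are marked. Markers were named where past the threshold in any comparison, at 0 in every library, or to show other members of their list. Promoters are from RefSeq on GRCm38.p6, and all 10 genes matched.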

Additional observations from a re-analysis of the deposited data

Results flagged for a closer look

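Ocln was the only gene of the set whose KCC-07 and Mbd2 knockdown effects differed past the threshold in the main edgeR fit without a block. That call held in 4 of the 12 fits that left out 1 library. Further genes of the set passed with the replicate block (6 with Ocln, where 6.9% of all genes did) and with DESeq2. The difference was 1.88 on the log2 scale (edgeR adjusted p = 0.0339), from 1.57 with KCC-07 against control and -0.31 with siMBD2 against scramble. All 3 KCC-07 libraries were above all 3 control libraries, as in 12.3% of all genes, while the siRNA groups overlapped.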

How the results depend on the processing

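Over 702 alternative values of the 9 genes, 603 kept direction and side of the threshold, 34 newly passed, 54 no longer passed and 11 changed sign. With KCC-07 the count of called genes was 0 for the 6 libraries alone, 4 for those with the replicate block, and 3 to 7 when 1 library was left out. The 6 libraries with the block no longer called Cldn1, Cldn4 and Marveld2. With siMBD2 it was 2 for the 6 libraries with the block and 0 to 0 when 1 library was left out. In scramble against control it was 5 with the replicate block, 6 without batch 3 and 2 to 4 when 1 library was left out. For the difference of the effects it was 4 without a filter, 6 with the block, 6 with DESeq2, 6 without batch 3 and 0 to 2 when 1 library was left out. Apart from those named beside the results, the paired fit changed no other call of the 9 genes. Among siMBD2 differences, Cldn7 was 0.0419 without batch 3 and Tjp1 -0.0025 with DESeq2 size factors and -0.0025 with DESeq2. Leaving out 1 library, Cldn3 ran from -0.19 to 0.32, Cldn7 from -0.55 to 0.44 and Tjp1 from -0.0162 to 0.0178, and the F11r difference of the effects from -0.00904 to 0.12. Over all genes, the KCC-07 count was 844, against 3251 with the block, 1 for the 6 libraries alone, 394 for those with the block, 1871 with DESeq2 and 3833 without batch 3. For siMBD2 it was 6, against 112, 171, 2753, 80 and 162. For scramble against control it was 1313, against 2062 with the block, 332 for the 6 libraries with it, 2299 with DESeq2 and 6172 without batch 3. For the difference it was 98, against 176 without a filter, 1030 with the block, 597 with DESeq2 and 1589 without batch 3. Leaving out 1 library gave 391 to 2134, 2 to 32, 316 to 3125 and 11 to 351. The cause of these moves was not tested. Control counts of 23 to 48 limit Cldn4, and Cldn6 was below what the depth can compare.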
